A study of Mus musculus with 29 samples.

Results

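DNA replication genes encode the proteins that copy the genome in S phase, and their transcripts were measured in splenic and hepatic macrophages of mice with and without RNase T2 (wild-type and Rnaset2-/-). The set was given as 36 genes by symbol, by a rule that uses no measured value. Of these, 35 were listed among the 23930 genes of the expression table, and Pcna, the sliding clamp, was not analysed here. The study asked what the loss of RNase T2, a lysosomal enzyme that degrades RNA, does to tissue macrophages through the RNA sensor TLR13. Macrophages were taken without any treatment, and 29 libraries in 9 groups were used.

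Wild-type and Rnaset2-/- mice were of the C57BL/6 background, and the deletion removed Rnaset2a and Rnaset2b from every cell of the mouse. Ly6C high macrophages were CD11b(+) Ly6G(-) SiglecF(-) NK1.1(-), and the gate for Ly6C low macrophages also required Fcgr4(+). Before sorting, splenic cells were depleted of T, B, NK, granulocytic and erythroid cells with antibody-coated beads. Kupffer cells, the resident macrophages of the liver, were sorted from wild-type mice as Tim4(+) cells that were F4/80(+), CD11b(int) and PDCA-1 low. The splenic groups comprised 3 libraries each of wild-type Ly6C high, wild-type Ly6C low and Rnaset2-/- Ly6C high macrophages, and 4 of Rnaset2-/- Ly6C low macrophages. The hepatic groups comprised 3 libraries each of Ly6C high and Ly6C low macrophages of both genotypes, and 4 of Kupffer cells. Ages were not given, and the labels do not say that the libraries of a group came from separate mice, so p-values measure only the spread between these libraries. The deleted genes Rnaset2a and Rnaset2b were not analysed here, so the genotype labels were not checked against them.

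Replication starts when the origin recognition complex, with Cdc6 and Cdt1, loads the MCM ring onto DNA in G1 phase. Cdc45 and the GINS complex join the ring, with Mcm10, to make the active helicase, and DNA polymerases, primase, the clamp and its loader then copy both strands from deoxynucleotides made by enzymes such as ribonucleotide reductase and thymidylate synthase. Most of these genes are transcribed under the control of E2F factors shortly before S phase, and their transcripts are widely used as a gauge of proliferation. Ly6C high monocytes arise from dividing progenitors and mature into Ly6C low cells that divide less, while Kupffer cells renew themselves in the tissue.

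The promoters of the 4 members that rose in 3 genotype comparisons, Mcm2, Mcm3, Mcm6 and Tk1, and of Orc6, which fell in both hepatic comparisons, are shown with any match to an E2F-like site in capitals. Sequences were taken from RefSeq (GRCm38.p6), run 5′ to 3′ on the strand of the gene and extend from 250 bases before to 50 bases after the RefSeq start. The site was searched as TTTCCCGC, TTTGGCGC, TTTCGCGC or TTTGCCGC on both strands, and overlapping matches were kept.
Mcm2: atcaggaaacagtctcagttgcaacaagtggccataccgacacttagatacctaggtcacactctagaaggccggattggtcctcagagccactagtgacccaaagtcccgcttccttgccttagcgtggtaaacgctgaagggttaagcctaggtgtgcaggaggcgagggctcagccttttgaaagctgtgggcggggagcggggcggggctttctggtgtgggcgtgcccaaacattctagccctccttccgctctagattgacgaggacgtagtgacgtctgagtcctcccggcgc
Mcm3: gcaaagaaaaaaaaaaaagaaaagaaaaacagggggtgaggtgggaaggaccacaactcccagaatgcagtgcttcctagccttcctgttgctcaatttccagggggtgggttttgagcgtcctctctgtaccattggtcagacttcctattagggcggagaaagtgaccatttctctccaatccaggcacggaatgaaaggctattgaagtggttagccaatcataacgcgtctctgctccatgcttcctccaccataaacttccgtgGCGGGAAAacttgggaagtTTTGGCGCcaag
Mcm6: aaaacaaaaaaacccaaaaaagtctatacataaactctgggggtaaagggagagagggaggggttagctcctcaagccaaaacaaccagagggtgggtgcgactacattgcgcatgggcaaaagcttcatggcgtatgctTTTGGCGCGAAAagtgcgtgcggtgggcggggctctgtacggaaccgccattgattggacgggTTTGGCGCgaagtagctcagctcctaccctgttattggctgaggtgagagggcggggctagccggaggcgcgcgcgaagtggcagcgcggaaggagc
Tk1: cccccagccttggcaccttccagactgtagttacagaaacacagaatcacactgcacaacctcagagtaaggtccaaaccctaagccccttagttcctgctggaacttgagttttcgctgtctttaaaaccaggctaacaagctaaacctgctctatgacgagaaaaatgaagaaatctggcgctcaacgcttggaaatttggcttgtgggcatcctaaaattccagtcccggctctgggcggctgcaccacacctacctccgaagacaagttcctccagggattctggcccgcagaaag
Orc6: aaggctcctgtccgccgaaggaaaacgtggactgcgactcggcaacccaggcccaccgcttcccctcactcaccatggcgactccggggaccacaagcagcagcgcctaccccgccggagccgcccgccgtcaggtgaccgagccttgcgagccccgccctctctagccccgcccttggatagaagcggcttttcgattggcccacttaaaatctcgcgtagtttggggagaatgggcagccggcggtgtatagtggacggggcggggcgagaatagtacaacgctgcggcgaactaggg
The Mcm3 promoter (chr1:20820263-20820562, minus strand) held matches that began 20 and 39 bases after the start. In Mcm6 (chr1:128359656-128359955, minus strand), matches began 110, 106 and 47 bases before the start, and the first overlapped the next. No such letters were found in these windows of Mcm2 (chr6:88898731-88899030, minus strand), Tk1 (chr11:117825965-117826264, minus strand) or Orc6 (chr8:85299382-85299681, plus strand).

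A promoter entry was matched for 29 of the 35 members, and a gene was counted when any of its entries held the letters searched. The E2F-like site was held by 13 of the 29 (44.8%), against 547 of all 17223 genes with an entry (3.18%). The letters CCAAT, which NF-Y factors read, were present on either strand in 19 of the 29 (65.5%) and in 41.4% of all genes with an entry. The other members with the E2F-like site were Cdc6, Cdt1, Gins3, Lig1, Mcm5, Mcm7, Orc1, Pola1, Pold1, Rfc3 and Uhrf1. Both members with and without the site were called: in splenic Ly6C high macrophages, 9 of 13 tested members with it (8 of 12 leaving out Orc1, whose call is a description) and 12 of 15 without it were higher in Rnaset2-/- mice. Of all 10398 genes tested there, 9.77% were higher. A match is a description of letters and was not tested for binding.

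Levels are RPM, a gene's reads scaled to a fixed library total, of Ion AmpliSeq libraries, in which a single amplicon stands for each gene, so levels were compared between libraries and never between genes. The libraries held 11175843 to 21167602 reads (median 13027220), and 3 reads, taken as the floor, corresponded to 0.142 to 0.268 RPM. The splenic Rnaset2-/- Ly6C high libraries were deeper, with 20404155 to 21167602 reads, than the wild-type ones, with 14280906 to 14415756. Fcgr4, part of the Ly6C low gate, was at 790.3 ± 26.98 RPM (SD, n = 3) in splenic wild-type Ly6C low and 36.1 ± 4.25 RPM in Ly6C high macrophages. Clec4f, which marks Kupffer cells, was at 1674 to 5470.5 RPM in Kupffer cells and at 0 to 63.3 RPM in the remaining libraries. Xist was at or below 0.154 RPM in all 6 hepatic Rnaset2-/- libraries and at 321 to 539 RPM in the hepatic wild-type Ly6C libraries, with Y-linked transcripts at 150.1 to 291 RPM in the former and 0 to 52.0 RPM in the latter, so sex and genotype cannot be told apart in the liver. Replicates 2 and 3 of both hepatic wild-type Ly6C subsets held Xist together with 28.95 to 52.0 RPM of Y-linked transcripts, whereas replicate 1 of both held no read of the latter. One splenic library, Rnaset2-/- Ly6C low replicate 2, also had little Xist (0.781 RPM) and 301.2 RPM of Y-linked transcripts. Of the members, Pola1 alone lies on the X chromosome.

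Comparisons used limma on log2(RPM + 1) after relative log expression scaling, with p-values adjusted over all tested genes. A gene was called higher or lower at an adjusted p below 0.05 and more than 1.5-fold, and fold changes are given with their SE on this scale. Gins2, a GINS subunit, reached at most 1.31 RPM and Fen1, the flap nuclease, at most 0.461 RPM in any library, and neither passed the filter of 1 RPM in 3 compared libraries. The remaining 33 members were tested in at least 1 comparison. In these bulk libraries, fewer dividing cells and less RNA of a gene per cell cannot be told apart.

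Summed over the 35 members, replication transcripts were most abundant in splenic Ly6C high macrophages from Rnaset2-/- mice, at 2690 ± 603 RPM (SD, n = 3), and least abundant in hepatic Ly6C high macrophages from wild-type mice, at 465 ± 29.3 RPM (n = 3). Among single genes, 28 of the 35 members had their highest group mean in the former and 31 had their lowest in the latter. Splenic wild-type Ly6C high macrophages held 1719, 1796 and 1801 RPM, while the Rnaset2-/- libraries held 2226, 2473 and 3372 RPM. In splenic Ly6C low macrophages, the wild-type sum was 861 to 987 RPM and the Rnaset2-/- sums were 2259, 1354, 896 and 894 RPM, so 2 libraries stood above the wild-type range and 2 lay within it. In the liver, Rnaset2-/- sums exceeded wild-type sums in both subsets without overlap, with 909 to 992 against 440.3 to 497 RPM in Ly6C high and 1196 to 1410.2 against 822 to 952 RPM in Ly6C low macrophages. Kupffer cells, at 1394 to 1586 RPM, lay above the hepatic wild-type subsets. No test was made of the sum.

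**Figure D1:**
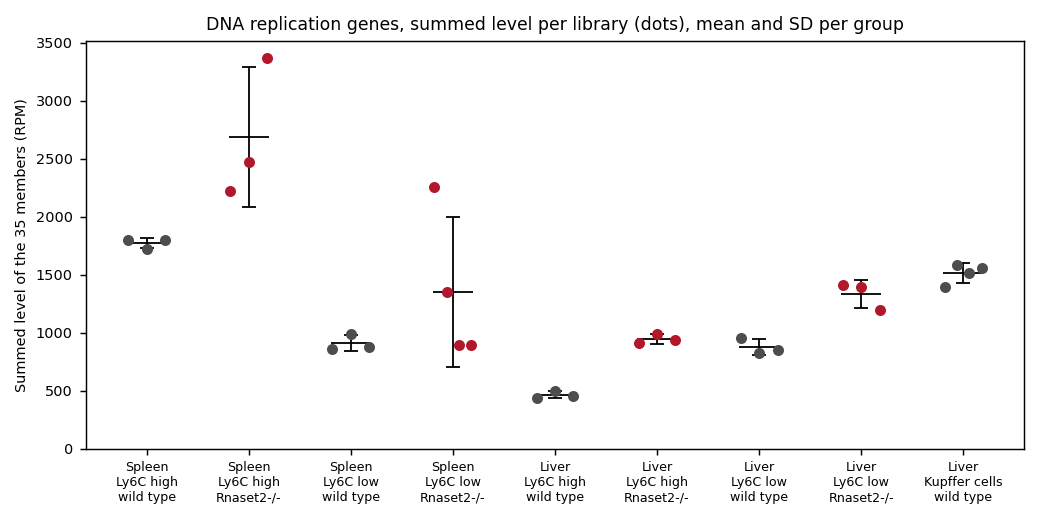
Summed level of the 35 members (RPM, vertical axis) in each library, by group. Dots are libraries (grey, wild type; red, Rnaset2-/-), and horizontal lines with bars are the mean and SD; the splenic Rnaset2-/- Ly6C low libraries spread from 894 to 2259 RPM.

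**Figure D2:**
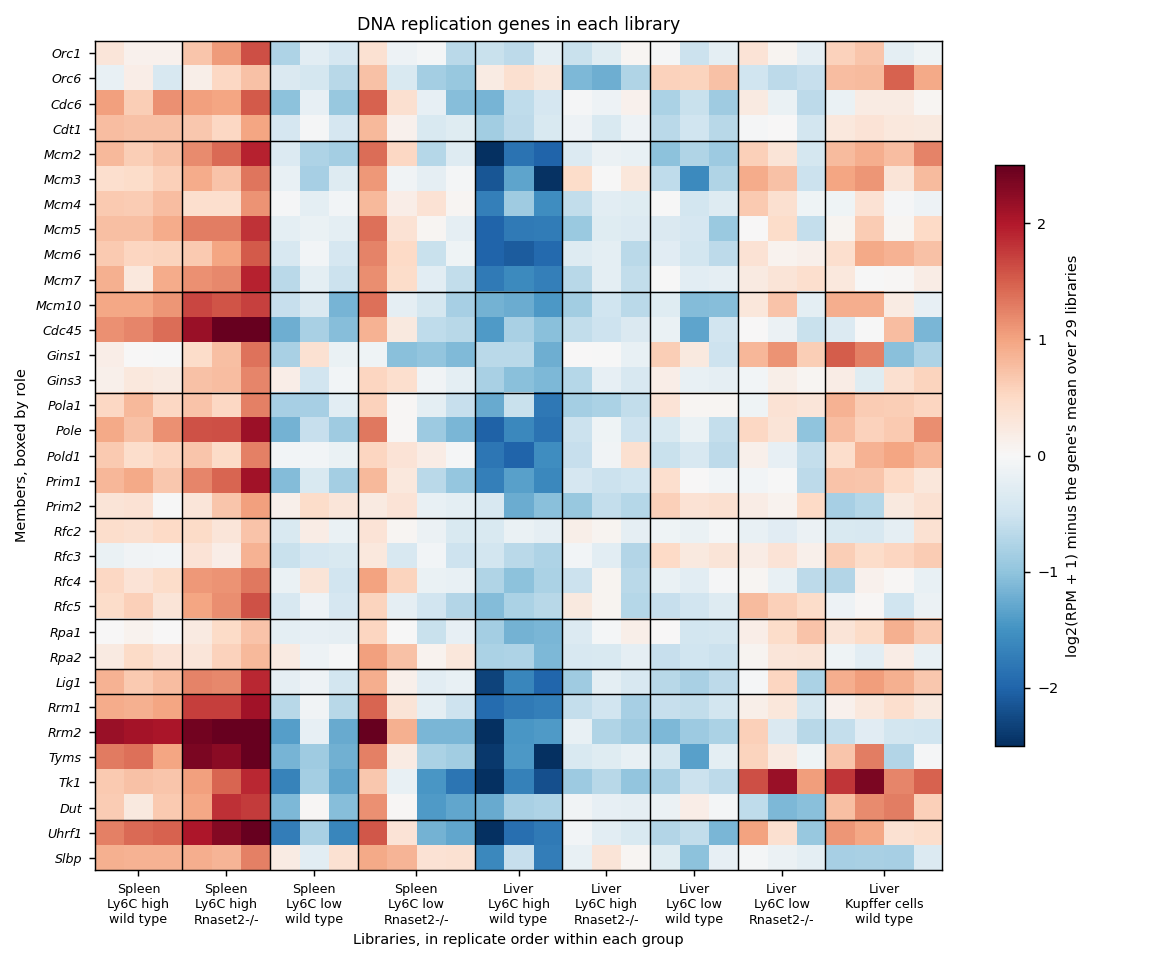
Level of each member with at least 2 RPM in some library, as log2(RPM + 1) minus its mean over the 29 libraries, with libraries in columns by group and genes in rows by role. Values beyond the ends of the colour scale take the end colours; most rows are darkest red in splenic Rnaset2-/- Ly6C high and darkest blue in hepatic wild-type Ly6C high macrophages.

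In splenic Ly6C high macrophages, 23 of 33 members tested were higher in Rnaset2-/- mice and none was lower, where 9.77% of the 10398 genes tested were higher and 12.5% were lower. All 33 fold changes were above 0, with a median of 0.80 on the log2 scale against 0.01 over all tested genes. Every Rnaset2-/- library exceeded every wild-type library for 23 members, a pattern shown by 18.7% of tested genes. The 23 members without overlap were not all the 23 called ones, since Orc6 was called with overlap and Rpa1 did not overlap but changed less than 1.5-fold.

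Among licensing factors, Orc1, the large subunit of the origin recognition complex, was at 1.11, 0.833 and 0.84 RPM in wild-type libraries and 1.75, 2.55 and 4.23 RPM in Rnaset2-/- libraries (1.02 ± 0.24, adjusted p = 0.00785). These values rest on 16, 12 and 12 reads against 37, 52 and 89 reads, and the groups did not overlap. Orc1 passed the filter only through its Rnaset2-/- libraries, since a single wild-type library reached 1 RPM, so its call is a description; leaving it out, 22 of 32 members were higher. Orc6, the smallest subunit, was at 4.995, 6.66 and 4.201 RPM in wild-type against 6.57, 8.77 and 10.3 RPM in Rnaset2-/- macrophages (0.70 ± 0.21, adjusted p = 0.0226), where the lowest Rnaset2-/- library fell below the highest wild-type library. Cdc6 was at 9.78, 7.15 and 10.7 RPM in wild-type and 9.87, 9.51 and 14.5 RPM in Rnaset2-/- mice (0.37 ± 0.19, adjusted p = 0.163), and Cdt1, which brings MCM rings to origins, was at 45.2, 44.1 and 44.2 RPM in wild-type libraries and 42.7, 37.9 and 52.8 RPM in Rnaset2-/- libraries (0.10 ± 0.12, adjusted p = 0.542). The groups of both loading factors overlapped, and the Cdt1 difference turned slightly negative without scaling.

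Of the 6 subunits of the MCM ring, 5 rose. Mcm2 was at 75.5, 65.8 and 71.4 RPM in wild-type against 97.6, 115 and 165 RPM in Rnaset2-/- macrophages (0.90 ± 0.16, adjusted p = 0.00187). Mcm5 was at 58.3, 57.9 and 66.2 RPM in wild-type and 84.2, 84.5 and 121 RPM in Rnaset2-/- mice (0.76 ± 0.14, adjusted p = 0.00189). Mcm6 was at 129, 119 and 120.4 RPM in wild-type libraries and 130.3, 162 and 239 RPM in Rnaset2-/- libraries (0.60 ± 0.18, adjusted p = 0.0226). In all 3 genes the groups did not overlap, although replicate 1 of Mcm6 in Rnaset2-/- mice exceeded the highest wild-type library by little. Mcm3 (log2 fold change 0.62 ± 0.14, adjusted p = 0.00562) and Mcm7 (0.84 ± 0.22, adjusted p = 0.0116) also rose. Mcm4 stood apart from its partners, at 64.5, 63.4 and 69.7 RPM in wild-type against 54.7, 54.3 and 88.7 RPM in Rnaset2-/- macrophages (0.08 ± 0.16, adjusted p = 0.733), with 2 Rnaset2-/- libraries below and 1 above the wild-type range, and its sign turned without scaling.

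All 4 tested factors of helicase activation rose. Cdc45 was at 11.6, 12.3 and 14.1 RPM in wild-type and 24.4, 32.8 and 44.1 RPM in Rnaset2-/- mice (1.43 ± 0.19, adjusted p = 3.35e-04), the largest change of any member here. Mcm10, which helps start the helicase, was at 8.53, 8.604 and 9.59 RPM in wild-type libraries and 14.7, 13.5 and 15.1 RPM in Rnaset2-/- libraries (0.75 ± 0.14, adjusted p = 0.00194). The GINS subunits Gins1 (0.91 ± 0.22, adjusted p = 0.00784) and Gins3 (0.81 ± 0.17, adjusted p = 0.0041) rose as well, and in none of the 4 genes did the groups overlap.

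Of 5 genes for polymerases and primase, 2 rose. Pole, the catalytic subunit of the leading-strand polymerase, was at 14.6, 12.4 and 16.8 RPM in wild-type against 23.4, 23.7 and 34.6 RPM in Rnaset2-/- macrophages (0.95 ± 0.17, adjusted p = 0.00182). Prim1, the catalytic primase subunit, was at 22.9, 24.8 and 20.3 RPM in wild-type and 30.2, 35.5 and 56.03 RPM in Rnaset2-/- mice (0.88 ± 0.20, adjusted p = 0.00587). Both were without overlap. Its partner Prim2 passed the p threshold but not the fold (0.57 ± 0.18, adjusted p = 0.0294). Pola1, the catalytic subunit of polymerase alpha, was at 8.26, 10.5 and 8.33 RPM in wild-type libraries and 9.69, 8.28 and 14.6 RPM in Rnaset2-/- libraries (0.32 ± 0.20, adjusted p = 0.23), and Pold1, of the lagging-strand polymerase, changed by 0.39 ± 0.17, adjusted p = 0.0933, and in both the groups overlapped, with Rnaset2-/- replicate 3 alone clearly above the wild-type range.

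In the clamp loader, Rfc3 (0.68 ± 0.18, adjusted p = 0.0146), Rfc4 (0.85 ± 0.13, adjusted p = 6.31e-04) and Rfc5 (0.91 ± 0.15, adjusted p = 0.00105) rose, and Rfc2 did not pass (0.17 ± 0.10, adjusted p = 0.221). Rfc4 was at 15.7, 13.7 and 15.1 RPM in wild-type against 23.9, 24.6 and 28.02 RPM in Rnaset2-/- macrophages. The subunits of RPA, which coats single-stranded DNA, were not called: Rpa1 was at 197, 208 and 198 RPM in wild-type and 228, 271 and 322 RPM in Rnaset2-/- mice (0.55 ± 0.12, adjusted p = 0.00576) and was without overlap, but its fold lay under the limit. Lig1, which seals Okazaki fragments, was at 24.1, 20.5 and 22.3 RPM in wild-type libraries and 31.4, 30.7 and 49.95 RPM in Rnaset2-/- libraries (0.80 ± 0.17, adjusted p = 0.00525) and did not overlap between the genotypes.

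Each of the 5 genes of deoxynucleotide supply rose without overlap. Rrm1, the large subunit of ribonucleotide reductase, was at 107, 104 and 113 RPM in wild-type against 188, 189 and 245 RPM in Rnaset2-/- macrophages, a change of 1.04 ± 0.11 with the lowest adjusted p of the members (adjusted p = 7.37e-05). Its small subunit Rrm2 was at 147, 138 and 135 RPM in wild-type and 175, 255 and 282 RPM in Rnaset2-/- mice (0.84 ± 0.16, adjusted p = 0.00231). Tyms, thymidylate synthase, was at 21.3, 22.5 and 16.9 RPM in wild-type libraries and 45.2, 42.5 and 60.4 RPM in Rnaset2-/- libraries (1.35 ± 0.16, adjusted p = 1.34e-04). All Rnaset2-/- libraries of these 3 genes stood above the wild-type range, and replicate 3 was the highest. Tk1, the thymidine kinase of S phase, was at 31.98, 33.7 and 32.7 RPM in wild-type against 41.7, 56.2 and 76.6 RPM in Rnaset2-/- macrophages (0.88 ± 0.18, adjusted p = 0.00394), and Dut, which removes dUTP, was at 22.5, 16.999 and 22.9 RPM in wild-type and 28.9, 53.3 and 50.1 RPM in Rnaset2-/- mice (1.12 ± 0.22, adjusted p = 0.00306). Uhrf1, which carries DNA methylation through replication, was at 73.8, 81.9 and 85.1 RPM in wild-type libraries and 126, 152 and 212 RPM in Rnaset2-/- libraries (1.10 ± 0.16, adjusted p = 5.39e-04), again without overlap. Slbp, which binds histone mRNA, was at 95.2, 93.9 and 94.4 RPM in wild-type against 96.5, 92.3 and 123 RPM in Rnaset2-/- macrophages (0.24 ± 0.11, adjusted p = 0.108), with overlapping groups.

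Replicate 3 of the Rnaset2-/- libraries was the highest of its group in 32 of 33 members, and it exceeded every wild-type library in all 33. Replicates 1 and 2 exceeded every wild-type library in 25 and 26 members. Between 19 and 25 members were called when any 1 library was left out; Orc6 and Mcm6 lost their call in 4 of the 6 such fits, Mcm3 and Rfc3 in 2 (without wild-type replicate 1 or Rnaset2-/- replicate 3) and Mcm7 in 1 (without wild-type replicate 2). Wild-type replicates 1 and 3 and Rnaset2-/- replicate 3 were among those that ended the call of both Orc6 and Mcm6, with Rnaset2-/- replicate 2 for Orc6 and wild-type replicate 2 for Mcm6. Fitted together with the other groups, in 1 fit of all 29 libraries, 11 members were called. Genes of neutrophils and granulocyte precursors moved with the genotype: all 14 listed genes were detected, and their summed level was 32175 to 34427 RPM in the wild-type libraries and 35444, 61962 and 58954 RPM in Rnaset2-/- replicates 1, 2 and 3. Their part in the result was not tested. Marker lists of NK, T, B and dendritic cells were lower in Rnaset2-/- libraries, with all 9, 6, 4 and 7 tested genes called lower.

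Further lists of related genes were counted in the same comparison. Of 40 further genes of the replication machinery, 18 were higher and none lower, with a median of 0.53, and these included the PCNA-binding factor 2810417H13Rik (1.45 ± 0.12, adjusted p = 1.25e-05), the histone chaperone Asf1b (1.32 ± 0.11, adjusted p = 1.26e-05) and the fork protein Tipin (1.26 ± 0.18, adjusted p = 3.99e-04). Of 20 further genes of nucleotide supply, 4 were higher and none lower. Of 28 tested genes of G1/S control, 9 were higher and 2 lower: the S-phase cyclin Ccna2 rose (1.17 ± 0.09, adjusted p = 8.49e-06), while the G1 cyclins Ccnd1 (-1.81 ± 0.23, adjusted p = 2.48e-04) and Ccnd2 (-1.56 ± 0.17, adjusted p = 1.05e-04) fell. Mki67, the gene of the Ki67 antigen, was at 111, 107 and 116 RPM in wild-type and 194, 178 and 234 RPM in Rnaset2-/- mice (0.96 ± 0.10, adjusted p = 8.55e-05), and Top2a, topoisomerase II alpha, was at 133, 120.3 and 123 RPM in wild-type libraries and 242, 260.1 and 312 RPM in Rnaset2-/- libraries (1.22 ± 0.11, adjusted p = 2.15e-05), both without overlap.

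**Figure D3:**
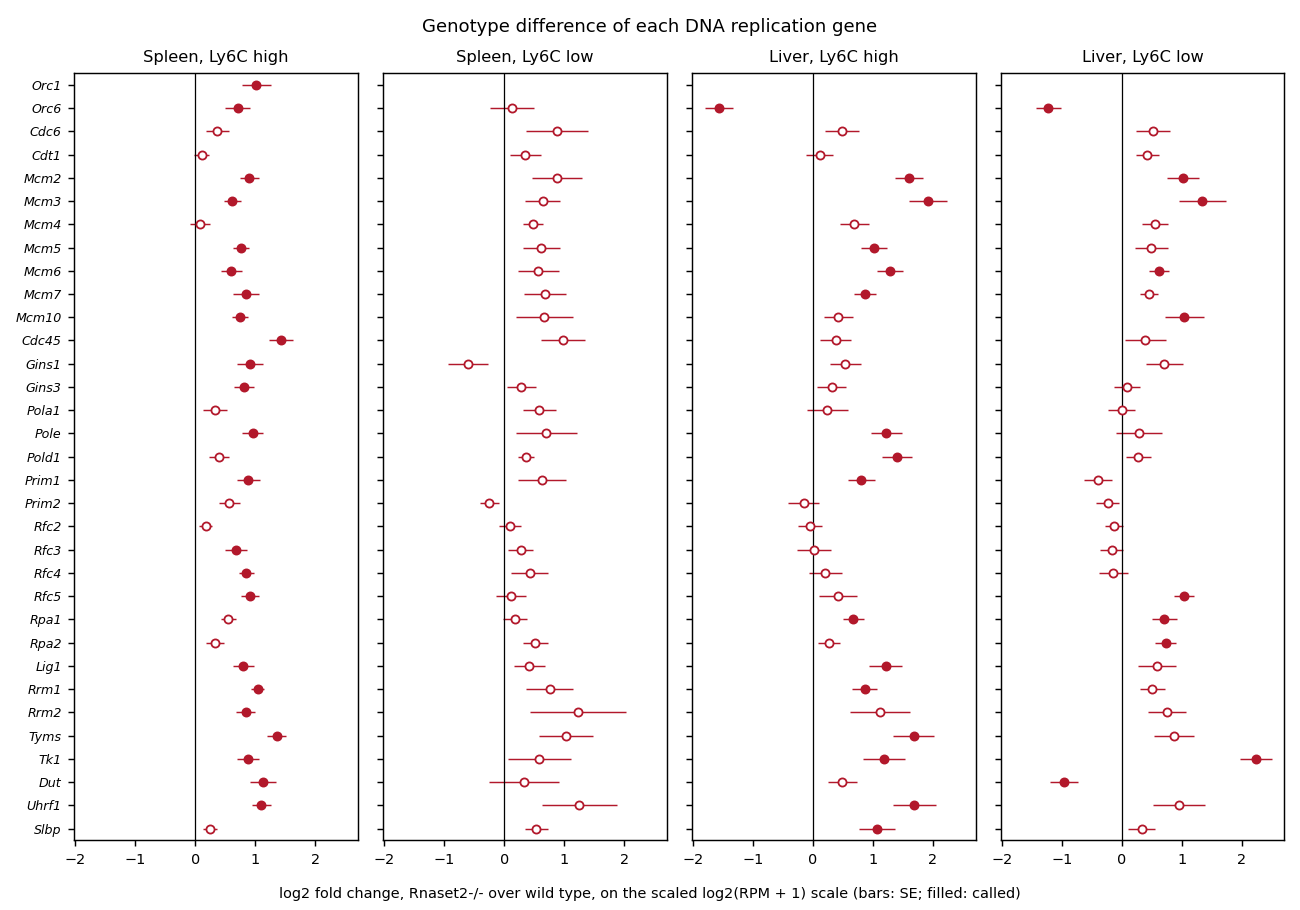
Difference between Rnaset2-/- and wild-type mice for each member, as log2 fold change on the scaled log2(RPM + 1) scale, in the 4 sorted populations. Bars are SE, filled points are called and members not tested are left blank; 23 points are filled in splenic Ly6C high, none in splenic Ly6C low, 16 in hepatic Ly6C high and 10 in hepatic Ly6C low macrophages.

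In splenic Ly6C low macrophages, none of 32 members tested was called, where the genes tested numbered 10295, of which 4.05% were higher and 4.3% lower in the Rnaset2-/- libraries (8.35% called in either direction). Fold changes were above 0 for 30 members, with a median of 0.55 against 0.01 over all tested genes, and 6 of the 32 members had an unadjusted p below 0.05, where 29.8% of tested genes did. edgeR on the recovered reads also called none, and DESeq2 called 2, Cdc45 and Tyms. The Rnaset2-/- libraries spread widely: replicate 1 was the highest of its group in 32 of 33 members. Replicates 1 and 2 exceeded every wild-type library in 31 and 27 members, and replicates 3 and 4 in 8 and 9.

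Cdc45 was at 1.47, 2.27 and 1.76 RPM in wild-type against 9.46, 5.82, 2.695 and 2.54 RPM in Rnaset2-/- macrophages (0.98 ± 0.36, adjusted p = 0.117). Tyms was at 3.08, 3.91 and 2.95 RPM in wild-type and 20.6, 9.51, 4.26 and 3.95 RPM in Rnaset2-/- mice (1.03 ± 0.45, adjusted p = 0.167). In Pold1 (0.37 ± 0.13, adjusted p = 0.105), Mcm4 (0.47 ± 0.17, adjusted p = 0.107), Cdc45 and Tyms, each Rnaset2-/- library exceeded each wild-type library, a pattern shown by 14.3% of tested genes. The largest differences were those of Uhrf1 and Rrm2. Uhrf1 was at 8.39, 16.7 and 9.06 RPM in wild-type libraries and 90.5, 38.4, 12.8 and 11.7 RPM in Rnaset2-/- libraries (1.25 ± 0.62, adjusted p = 0.213). Rrm2 was at 11.7, 27.7 and 12.7 RPM in wild-type against 184, 59.97, 13.97 and 13.9 RPM in Rnaset2-/- macrophages (1.23 ± 0.80, adjusted p = 0.339). In both, replicates 3 and 4 lay within the wild-type range and replicates 1 and 2 above it. The smallest adjusted p of any member was that of Slbp, at 59.1, 42.3 and 66.4 RPM in wild-type and 99.4, 91.97, 65.9 and 67.001 RPM in Rnaset2-/- mice (0.54 ± 0.19, adjusted p = 0.104), with Rnaset2-/- replicate 3 inside the wild-type range.

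The helicase genes shared the spread. Mcm2 was at 33.5, 24.4 and 23.2 RPM in wild-type libraries and 114, 61.2, 25.5 and 33.7 RPM in Rnaset2-/- libraries (0.88 ± 0.42, adjusted p = 0.198). Mcm5 was at 28.7, 30.2 and 28.5 RPM in wild-type against 90.3, 43.9, 35.5 and 29.1 RPM in Rnaset2-/- macrophages (0.62 ± 0.31, adjusted p = 0.212), and Mcm6 was at 61.7, 78.03 and 61.4 RPM in wild-type and 195, 116, 55.2 and 76.02 RPM in Rnaset2-/- mice (0.57 ± 0.34, adjusted p = 0.301). In these 3 genes replicates 1 and 2 stood well above the wild-type range, and replicates 3 and 4 lay within it or nearer to it. Cdc6 was at 1.61, 3.64 and 1.76 RPM in wild-type libraries and 13.8, 6.03, 3.62 and 1.55 RPM in Rnaset2-/- libraries (0.88 ± 0.51, adjusted p = 0.287), Cdt1 at 19.4, 25.7 and 19.5 RPM in wild-type against 46.5, 28.3, 19.8 and 21.2 RPM in Rnaset2-/- macrophages (0.35 ± 0.26, adjusted p = 0.398). Orc1 was under the filter, with 0, 6 and 4 reads in wild-type and 17, 8, 9 and 1 reads in Rnaset2-/- libraries.

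Among synthesis and supply genes, Prim1 was at 5.31, 9.26 and 6.46 RPM in wild-type and 22.4, 14.97, 7.38 and 5.85 RPM in Rnaset2-/- mice (0.63 ± 0.39, adjusted p = 0.316) and Pola1 at 2.66, 2.68 and 4.43 RPM in wild-type libraries and 8.68, 5.61, 4.47 and 3.38 RPM in Rnaset2-/- libraries (0.59 ± 0.28, adjusted p = 0.202). Lig1 was at 10.8, 11.7 and 8.99 RPM in wild-type against 24.8, 14.1, 10.4 and 11.1 RPM in Rnaset2-/- macrophages (0.42 ± 0.26, adjusted p = 0.315), and Rpa1 at 166, 169.9 and 169 RPM in wild-type and 285, 195, 133 and 171 RPM in Rnaset2-/- mice (0.17 ± 0.20, adjusted p = 0.594). Rrm1 was at 34.04, 52.8 and 34.5 RPM in wild-type libraries and 155, 70.7, 47.1 and 38.96 RPM in Rnaset2-/- libraries (0.75 ± 0.40, adjusted p = 0.241), and Tk1 at 5.59, 10.6 and 7.45 RPM in wild-type against 32.2, 17.3, 6.67 and 4.93 RPM in Rnaset2-/- macrophages (0.58 ± 0.53, adjusted p = 0.49). All of these overlapped between the genotypes. Gins1 (-0.60 ± 0.34, adjusted p = 0.266) and Prim2 (-0.25 ± 0.16, adjusted p = 0.33) were the 2 members with fold changes below 0.

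Marker genes of other cells differed between the same libraries. The neutrophil and granulocyte precursor list (14 of 14 genes detected) summed to 1109 to 2509 RPM in wild-type libraries and to 42265, 23836, 4542 and 3567 RPM in Rnaset2-/- replicates 1 to 4. The erythroid list (10 of 14 genes in the table) summed to 67.0 to 143 RPM and to 1357, 396, 103 and 123 RPM. B and plasma cell genes summed to 163 to 174 RPM in wild-type libraries and to 846, 1397, 270.4 and 222 RPM in Rnaset2-/- replicates 1 to 4, and of 4 tested Jchain (4.15 ± 0.62, adjusted p = 0.0079) and Mzb1 (3.44 ± 0.85, adjusted p = 0.042) were called higher and Cd22 (-2.79 ± 0.51, adjusted p = 0.0162) lower. NK cell genes summed to 108.7 to 174 RPM in wild-type and 12.0 to 71.7 RPM in Rnaset2-/- libraries. Of the endothelial list, Pecam1 alone was called, at 266 to 324 RPM in wild-type and 1456 to 2195 RPM in Rnaset2-/- libraries (2.66 ± 0.18, adjusted p = 1.25e-04), while Lyve1, Kdr and Bmp2 stayed below 5 RPM and were not called, and Stab2, Clec4g, Ptprb and Egfl7 were too low to test. In unscaled RPM, the order of the 4 libraries in the neutrophil list was that of their summed replication transcripts. Replicates 3 and 4 differed little in that sum (896 and 894 RPM) and changed places after scaling over all 29 libraries (957 and 963). The part of these other cell types in the result was not tested. Without replicate 1 the median of the members was 0.29, and no member was called. Mki67 was at 4.96, 13.04 and 5.27 RPM in wild-type and 77.95, 41.7, 10.5 and 12.96 RPM in Rnaset2-/- mice (1.76 ± 0.63, adjusted p = 0.108), and Top2a changed by 1.46 ± 0.61, adjusted p = 0.148; neither was called.

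The difference between the subsets in the effect of genotype was tested in the spleen. Of 33 members, 2 were called lower, meaning a smaller change in Ly6C low than in Ly6C high macrophages, and none higher, where 6.38% of 10838 tested genes were lower and 8.35% higher. These were Gins1 (-1.54 ± 0.44, adjusted p = 0.034) and Prim2 (-0.84 ± 0.26, adjusted p = 0.048). Both calls were lost on unscaled RPM and without the filter, and leaving out single libraries lost them in 9 and 10 of 13 fits. For the other 31 members no difference between the subsets was called.

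In hepatic Ly6C high macrophages, 15 of 32 members tested were higher in Rnaset2-/- mice and 1, Orc6, was lower, where 15.7% of the 10957 genes tested were higher and 14.9% were lower. The median was 0.68 against 0.01 over all tested genes, with 29 members above 0. For 25 members each Rnaset2-/- library exceeded each wild-type library, as did 36.4% of tested genes, and for 1 each was below, as in 14.2%. Scaling mattered here: the factors of Rnaset2-/- libraries exceeded those of wild-type libraries by 0.32 on the log2 scale, and on unscaled RPM 18 members were higher and 1 lower.

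Of the MCM ring, 5 of 6 subunits rose. Mcm3 was at 10.03, 18.7 and 7.87 RPM in wild-type libraries and 66.3, 47.3 and 58.4 RPM in Rnaset2-/- libraries (1.91 ± 0.31, adjusted p = 0.00425), the largest change among called members. Mcm2 was at 6.41, 11.2 and 9.93 RPM in wild-type against 33.2, 38.2 and 37.1 RPM in Rnaset2-/- macrophages (1.60 ± 0.23, adjusted p = 0.00262). Mcm6 was at 19.8, 18.7 and 20.6 RPM in wild-type and 64.9, 69.05 and 51.2 RPM in Rnaset2-/- mice (1.28 ± 0.21, adjusted p = 0.00427). In these 3 genes the lowest Rnaset2-/- library was above the highest wild-type one by more than 2-fold. Mcm5 was at 7.72, 9.35 and 9.48 RPM in wild-type libraries and 17.6, 27.3 and 26.5 RPM in Rnaset2-/- libraries (1.02 ± 0.21, adjusted p = 0.0106), and Mcm7 rose as well (0.87 ± 0.18, adjusted p = 0.0105). Mcm4 was not called, at 11.6, 21.4 and 13.1 RPM in wild-type against 25.9, 33.7 and 32.4 RPM in Rnaset2-/- macrophages (0.69 ± 0.24, adjusted p = 0.0619), although its groups did not overlap.

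Orc6 fell, at 6.87, 8.01 and 7.25 RPM in wild-type and 2.15, 1.93 and 3.08 RPM in Rnaset2-/- mice (-1.57 ± 0.23, adjusted p = 0.00281), and each Rnaset2-/- library was below each wild-type library. Among other licensing factors, Cdc6 was at 1.39, 2.42 and 2.95 RPM in wild-type libraries and 4.22, 3.86 and 4.69 RPM in Rnaset2-/- libraries (0.48 ± 0.28, adjusted p = 0.218) and Cdt1 at 13.9, 16.4 and 19.9 RPM in wild-type against 23.9, 19.8 and 23.8 RPM in Rnaset2-/- macrophages (0.11 ± 0.22, adjusted p = 0.734), and neither was called. Orc1 stayed under the filter, with 2, 1 and 5 reads in wild-type and 2, 5 and 10 reads in Rnaset2-/- libraries. None of the 4 helicase activation factors was called. Cdc45 was at 1.16, 2.25 and 1.79 RPM in wild-type and 2.76, 3.01 and 3.46 RPM in Rnaset2-/- mice (0.37 ± 0.26, adjusted p = 0.296), without overlap but at low levels.

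Of the polymerases and primase, 3 of 5 rose. Pold1 was at 11.7, 10.2 and 14.1 RPM in wild-type libraries and 29.02, 40.9 and 57.8 RPM in Rnaset2-/- libraries (1.40 ± 0.25, adjusted p = 0.00582). Pole was at 1.003, 1.67 and 1.25 RPM in wild-type against 4.61, 6.57 and 4.69 RPM in Rnaset2-/- macrophages (1.22 ± 0.26, adjusted p = 0.0107). Prim1 was at 3.09, 4.26 and 3.399 RPM in wild-type and 8.98, 8.26 and 8.46 RPM in Rnaset2-/- mice (0.80 ± 0.23, adjusted p = 0.0317). All 3 were without overlap, Pold1 being highest in replicate 3. Pola1, on the X chromosome, was at 1.698, 3.42 and 0.895 RPM in wild-type libraries and 2.61, 2.78 and 3.23 RPM in Rnaset2-/- libraries (0.24 ± 0.34, adjusted p = 0.622), and its groups overlapped. No subunit of the clamp loader passed, with fold changes from -0.06 (Rfc2) to 0.41 (Rfc5), the first of which became positive on unscaled RPM. Rpa1 rose, at 109, 85.5 and 87.8 RPM in wild-type against 155, 189 and 218 RPM in Rnaset2-/- macrophages (0.67 ± 0.17, adjusted p = 0.024), and so did Lig1, at 1.78, 3.42 and 2.51 RPM in wild-type and 6.45, 10.7 and 9.38 RPM in Rnaset2-/- mice (1.21 ± 0.27, adjusted p = 0.0133), both without overlap.

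Of nucleotide supply genes, 3 of 5 rose. Tyms was at 0.695, 2.34 and 0.447 RPM in wild-type libraries and 5.99, 6.33 and 7 RPM in Rnaset2-/- libraries (1.67 ± 0.35, adjusted p = 0.0103). Rrm1 was at 13.97, 15.8 and 16.5 RPM in wild-type against 36.5, 40.01 and 31.1 RPM in Rnaset2-/- macrophages (0.86 ± 0.21, adjusted p = 0.0174), and Tk1 was at 1.54, 5.51 and 3.58 RPM in wild-type and 10.2, 11.9 and 9.54 RPM in Rnaset2-/- mice (1.18 ± 0.36, adjusted p = 0.0389). Each was without overlap, the wild-type levels of Tyms resting on 9, 28 and 5 reads, with a single wild-type library at 1 RPM or more, so that Tyms passed the filter only through its Rnaset2-/- libraries and its call is a description; leaving it out, 14 of 31 members were higher. Rrm2 varied more, at 2.701, 11.01 and 11.4 RPM in wild-type libraries and 28.1, 18.6 and 16.8 RPM in Rnaset2-/- libraries (1.12 ± 0.50, adjusted p = 0.123), and was not called. Dut was at 5.403, 7.68 and 7.96 RPM in wild-type against 13.3, 12.3 and 12.1 RPM in Rnaset2-/- macrophages (0.49 ± 0.24, adjusted p = 0.154), also not called. Uhrf1 was at 2.86, 7.43 and 8.14 RPM in wild-type and 28.5, 24.7 and 22.8 RPM in Rnaset2-/- mice (1.69 ± 0.36, adjusted p = 0.0115), and Slbp was at 15.9, 33.7 and 14.6 RPM in wild-type libraries and 44.9, 63.6 and 52.999 RPM in Rnaset2-/- libraries (1.07 ± 0.30, adjusted p = 0.0299), both called without overlap.

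Genes of other cell types were also higher in the hepatic Rnaset2-/- Ly6C high libraries. Summed levels were 164 to 376 against 11.6 to 31.1 RPM for T cells, 286 to 709 against 32.8 to 52.3 RPM for NK cells, and 171 to 1103 against 66.5 to 119.6 RPM for B and plasma cells. They were 111.4 to 337 against 11.8 to 23.7 RPM for erythroid cells, 414 to 2833 against 85.5 to 121 RPM for endothelial cells, and 422 to 494 against 15.7 to 20.8 RPM for Kupffer cells. The part of these cells in the result was not tested. Without Rnaset2-/- replicate 2, 9 members were called, and up to 17 were called when another library was left out. Prim1, Tk1 and Slbp lost their call when wild-type replicate 1 or 3, or Rnaset2-/- replicate 2 or 3, was left out, and Rpa1 when replicate 2 or 3 of either genotype was. Lig1 and Rrm1 lost theirs without wild-type replicate 1 or Rnaset2-/- replicate 2, and Pole without the latter. Orc6, Pold1, Uhrf1 and the 5 MCM subunits kept their calls in all 6 fits. Among related genes, Top2a rose, at 6.25, 14.4 and 7.78 RPM in wild-type against 37.5, 25.6 and 28.2 RPM in Rnaset2-/- macrophages (1.35 ± 0.32, adjusted p = 0.0176), while Mki67, at 6.02, 11.3 and 16.2 RPM in wild-type and 34.01, 19.8 and 14.2 RPM in Rnaset2-/- mice (0.67 ± 0.45, adjusted p = 0.282), overlapped and was not called. Of 38 further machinery genes tested, 5 were higher and 7 lower; the lower ones included the polymerase epsilon subunit Pole3 (-2.29 ± 0.31, adjusted p = 0.00206), the fork protein Timeless (-1.76 ± 0.25, adjusted p = 0.00247) and Orc5, a partner of Orc6 in the origin recognition complex (-1.52 ± 0.20, adjusted p = 0.00171). Of 28 genes of G1/S control, 6 were higher and 4 lower, among them the cyclin-dependent kinase inhibitor Cdkn1a, which fell (-2.62 ± 0.41, adjusted p = 0.00375).

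In hepatic Ly6C low macrophages, 8 of 32 members tested were higher in Rnaset2-/- mice and 2, Orc6 and Dut, were lower, where 20.2% of the 10808 genes tested were higher and 22.5% were lower. The median was 0.50 against 0.01 over all tested genes, and 24 members were above 0. The 8 of 32 members called higher was a share near that of all tested genes. For 14 members each Rnaset2-/- library exceeded each wild-type library, as for 29% of tested genes, and for 2 each was lower, as for 27.1%.

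Tk1 was the most changed member. It was at 10.9, 13.4 and 12.3 RPM in wild-type libraries and 62.6, 91.9 and 42.3 RPM in Rnaset2-/- libraries (2.23 ± 0.27, adjusted p = 4.03e-04), with the lowest Rnaset2-/- library more than 3-fold above the highest wild-type library. In Kupffer cells Tk1 was at 71.02, 105, 48.03 and 57.4 RPM, a range that took in Rnaset2-/- replicates 1 and 2. Rfc5, a clamp loader subunit, was at 32.1, 34.5 and 38.4 RPM in wild-type against 84.2, 74.1 and 66.8 RPM in Rnaset2-/- macrophages (1.04 ± 0.17, adjusted p = 0.0019). The other 3 loader subunits had fold changes from -0.17 (Rfc3) to -0.14 (Rfc2) and were not called. Both RPA subunits rose, Rpa1 at 197, 142 and 144 RPM in wild-type and 220, 268 and 323 RPM in Rnaset2-/- mice (0.70 ± 0.21, adjusted p = 0.0246) and Rpa2 at 18.7, 19.9 and 19.3 RPM in wild-type libraries and 29.9, 35.4 and 35.8 RPM in Rnaset2-/- libraries (0.73 ± 0.18, adjusted p = 0.0105). Tk1, Rfc5, Rpa1 and Rpa2 were all without overlap.

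Of the MCM ring, 3 of 6 subunits rose. Mcm2 was at 20.3, 24.8 and 22.3 RPM in wild-type against 64.6, 53.2 and 31.2 RPM in Rnaset2-/- macrophages (1.01 ± 0.26, adjusted p = 0.0145). Mcm3 was at 30.5, 15.2 and 28.01 RPM in wild-type and 92.4, 80.7 and 32.8 RPM in Rnaset2-/- mice (1.34 ± 0.39, adjusted p = 0.0246), and Mcm6 was at 67.05, 59.5 and 51.8 RPM in wild-type libraries and 105, 87.2 and 89.96 RPM in Rnaset2-/- libraries (0.62 ± 0.17, adjusted p = 0.018). In these genes the groups did not overlap, and in Mcm2 and Mcm3 replicate 3 was the lowest of the Rnaset2-/- libraries by a wide margin. Mcm5 was at 26.2, 25.3 and 17.4 RPM in wild-type against 34.3, 47.2 and 22.1 RPM in Rnaset2-/- macrophages (0.49 ± 0.28, adjusted p = 0.188), with overlap. Mcm7 passed the p threshold but not the fold (0.45 ± 0.15, adjusted p = 0.0439). Mcm10, at 2.98, 1.31 and 1.34 RPM in wild-type and 4.93, 7.004 and 3.14 RPM in Rnaset2-/- mice (1.04 ± 0.33, adjusted p = 0.0322), was the only helicase activation factor called, and Cdc45, at 4.14, 1.31 and 3.13 RPM in wild-type libraries and 4.77, 4.202 and 2.91 RPM in Rnaset2-/- libraries (0.39 ± 0.33, adjusted p = 0.374), overlapped.

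Orc6 fell again, at 9.19, 9.06 and 10.4 RPM in wild-type against 3.85, 3.35 and 3.599 RPM in Rnaset2-/- macrophages (-1.23 ± 0.21, adjusted p = 0.00233). Dut fell as well, at 12.7, 16.04 and 13.8 RPM in wild-type and 8.85, 5.99 and 6.36 RPM in Rnaset2-/- mice (-0.96 ± 0.23, adjusted p = 0.0107). For both genes every Rnaset2-/- library lay below every wild-type library. Cdc6 was at 2.07, 2.62 and 1.88 RPM in wild-type libraries and 5.23, 3.74 and 2.37 RPM in Rnaset2-/- libraries (0.52 ± 0.29, adjusted p = 0.181) and Cdt1 at 15.98, 18.3 and 15.9 RPM in wild-type against 25.8, 26.5 and 18.7 RPM in Rnaset2-/- macrophages (0.42 ± 0.20, adjusted p = 0.116). Orc1 had 8, 2 and 5 reads in wild-type and 15, 10 and 6 reads in Rnaset2-/- libraries and was not tested.

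The remaining synthesis and supply genes were not called. Rrm1 was at 37.5, 36.2 and 40.4 RPM in wild-type and 62.5, 68.7 and 40.8 RPM in Rnaset2-/- mice (0.51 ± 0.21, adjusted p = 0.0754), Rrm2 at 14.2, 16.5 and 17.99 RPM in wild-type libraries and 48.9, 24.7 and 19.3 RPM in Rnaset2-/- libraries (0.75 ± 0.32, adjusted p = 0.092) and Tyms at 5.71, 2.53 and 6.71 RPM in wild-type against 12.4, 9.57 and 7.43 RPM in Rnaset2-/- macrophages (0.87 ± 0.33, adjusted p = 0.0635). Although these 3 did not overlap, their adjusted p missed the threshold. Prim1 was at 16.8, 12.5 and 11.7 RPM in wild-type and 11.8, 12.3 and 7.503 RPM in Rnaset2-/- mice (-0.40 ± 0.24, adjusted p = 0.21), Pola1 at 7.28, 5.75 and 5.73 RPM in wild-type libraries and 5.003, 7.32 and 6.97 RPM in Rnaset2-/- libraries (-0.01 ± 0.23, adjusted p = 0.982) and Lig1 at 7.53, 6.798 and 7.79 RPM in wild-type against 12.5, 18.9 and 6.97 RPM in Rnaset2-/- macrophages (0.59 ± 0.31, adjusted p = 0.163). Uhrf1 was at 17.6, 19.2 and 13.2 RPM in wild-type and 61.4, 39.9 and 15.2 RPM in Rnaset2-/- mice (0.95 ± 0.43, adjusted p = 0.11) and Slbp at 41.1, 24.5 and 43.9 RPM in wild-type libraries and 49.2, 46.1 and 42.8 RPM in Rnaset2-/- libraries (0.33 ± 0.23, adjusted p = 0.277). The groups of these 5 genes overlapped, Uhrf1 and Lig1 because of replicate 3.

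Replicate 3 of the Rnaset2-/- libraries exceeded every wild-type library in 14 of 33 members, against 25 in replicates 1 and 2. Without it 16 members were called (14 higher, 2 lower), and without wild-type replicate 3, 5 were called (3 higher, 2 lower). Tk1, Rfc5, Rpa2, Orc6 and Dut kept their calls in all 6 fits that left out a library, while Mcm10 and Rpa1 lost theirs in 4, Mcm3 in 3, and Mcm2 and Mcm6 in 2. Leaving out wild-type replicate 3 ended the call of each of these 5 genes, wild-type replicate 2 and Rnaset2-/- replicate 2 that of Mcm3, Mcm10 and Rpa1, wild-type replicate 1 that of Mcm2, Rnaset2-/- replicate 1 that of Mcm6 and Mcm10, and Rnaset2-/- replicate 3 that of Rpa1. Kupffer cell genes (9 of 9 in the table) summed to 6556 to 11399 RPM in these Rnaset2-/- libraries, to 152 to 201 RPM in wild-type Ly6C low libraries and to 7065 to 20191 RPM in Kupffer cells. Endothelial genes, of which 2 of 8 were called higher, summed to 1123 to 4309 against 271 to 466 RPM in the wild-type libraries, and erythroid genes to 78.9 to 218 against 25.3 to 30.3 RPM. The part of these genes in the result was not tested. Mki67 was at 20.7, 24.8 and 26.8 RPM in wild-type against 43.6, 38.7 and 24.7 RPM in Rnaset2-/- macrophages (0.48 ± 0.24, adjusted p = 0.139) and Top2a at 28.4, 21.4 and 23.4 RPM in wild-type and 51.96, 37.7 and 22.97 RPM in Rnaset2-/- mice (0.50 ± 0.28, adjusted p = 0.18), neither of them called. Of 39 further machinery genes tested, 6 were higher and 12 lower, including the nuclease Dna2 (-3.95 ± 0.40, adjusted p = 1.94e-04) and the origin recognition subunits Orc5 (-1.58 ± 0.20, adjusted p = 6.05e-04) and Orc4 (-1.05 ± 0.16, adjusted p = 0.00151), which fell. Of 28 genes of G1/S control, 5 were higher and 8 lower, among them E2f1 (1.14 ± 0.16, adjusted p = 8.24e-04), which rose, and E2f2 (-2.5 ± 0.34, adjusted p = 7.72e-04) and Cdkn1a (-3.80 ± 0.37, adjusted p = 1.60e-04), which fell.

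Set side by side, Mcm2, Mcm3, Mcm6 and Tk1 were higher in 3 of the 4 genotype comparisons, 11 members in 2, 12 in 1 and 8 in none. Leaving out the calls of Orc1 in the spleen and Tyms in hepatic Ly6C high macrophages, which are descriptions, 10 members were higher in 2, 12 in 1 and 9 in none. Of the 11660 genes tested in at least 1 of these comparisons, 1.72% were higher in 3, 8.28% in 2 and 23.4% in 1, and no test was made of these counts. With Orc1 and Tyms counted as called, the 8 in none included Gins2 and Fen1, which were never tested, as well as Cdc6, Cdt1, Mcm4, Pola1, Prim2 and Rfc2. Each comparison had its own wild-type libraries. The difference between organs in the effect of genotype was tested next. In Ly6C high macrophages, 2 of 33 members were called higher in liver (Mcm3, 1.33 ± 0.37, adjusted p = 0.0144, and Pold1, 1.05 ± 0.32, adjusted p = 0.023) and 2 lower (Orc6, -2.26 ± 0.31, adjusted p = 1.94e-04, and Cdc45, -1.02 ± 0.32, adjusted p = 0.0268), where 17.6% of 11398 tested genes were higher and 16% lower. In Ly6C low macrophages, Rfc5 (0.94 ± 0.33, adjusted p = 0.0487) was called higher and Orc6 (-1.36 ± 0.45, adjusted p = 0.0397) lower of 32 members, where 12.1% of 11308 tested genes were higher and 14.7% lower. Leaving out single libraries lost the calls of Rfc5 in 12 and of Orc6 in 10 of 13 fits in Ly6C low macrophages, and of Cdc45 in 6 and of Pold1 in 5 of 12 fits in Ly6C high macrophages, and those of Mcm3 and of Orc6 in Ly6C high macrophages in none. Between the hepatic subsets, Dut (-1.43 ± 0.32, adjusted p = 0.0157) and Prim1 (-1.18 ± 0.31, adjusted p = 0.0344) changed less, or in the other direction, in Ly6C low than in Ly6C high macrophages, and none changed more, where 5.25% of 12626 tested genes were lower and 5.08% higher. Prim1 lost its call in 8 of 12 fits without 1 library, and Dut in none.

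**Figure D4:**
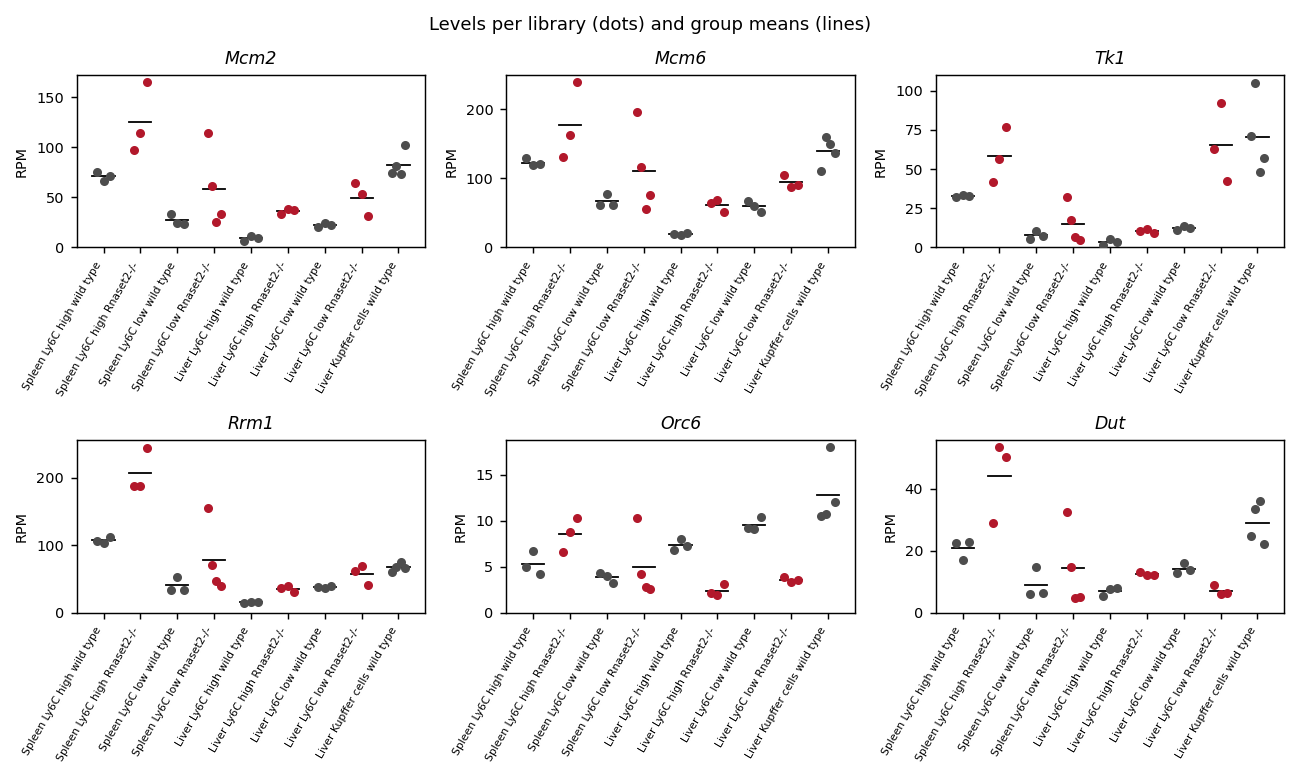
Level of Mcm2, Mcm6, Tk1, Rrm1, Orc6 and Dut in each library (RPM, vertical axes) of the 9 groups. Dots are libraries (grey, wild type; red, Rnaset2-/-) and lines are group means; Orc6 lies below 4 RPM in all 6 hepatic Rnaset2-/- libraries and above 6 RPM in the hepatic wild-type ones.

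Subset differences in wild-type mice ran in opposite directions in the 2 organs. In the spleen, 22 of 32 members were lower in Ly6C low than in Ly6C high macrophages and none was higher, where 19.8% of the 10521 genes tested were lower and 13.8% higher (33.6% in all). The median was -0.89 against 0.01 over all tested genes, and for 27 members each Ly6C low library was below each Ly6C high library, as for 38.9% of tested genes. In the liver, 16 of 32 members were higher in Ly6C low macrophages and none was lower, where 5.24% of the 11688 genes tested were higher and 4.84% lower (10.1% in all). The median there was 0.93 against 0.02, and for 27 members each Ly6C low library was above each Ly6C high library, as for 19.2% of tested genes.

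In the spleen the largest falls were those of Rrm2, Uhrf1, Tyms and Cdc45. Rrm2 was at 147, 138 and 135 RPM in Ly6C high and 11.7, 27.7 and 12.7 RPM in Ly6C low macrophages (-2.90 ± 0.26, adjusted p = 7.32e-06). Tyms changed by -2.17 ± 0.17, adjusted p = 2.70e-06, Tk1 by -1.83 ± 0.19, adjusted p = 2.49e-05, Uhrf1 by -2.63 ± 0.22, adjusted p = 4.02e-06 and Cdc45 by -2.16 ± 0.17, adjusted p = 2.84e-06. All 6 MCM subunits fell, from -0.66 (Mcm4) to -1.23 (Mcm2), and so did Cdc6 (-1.53 ± 0.24, adjusted p = 4.67e-04) and Cdt1 (-0.88 ± 0.13, adjusted p = 2.83e-04). Prim2 (0.21 ± 0.13, adjusted p = 0.216), Gins1 (-0.13 ± 0.27, adjusted p = 0.714) and Orc6 (-0.24 ± 0.19, adjusted p = 0.321) were not called. Mki67 fell by far, from 111, 107 and 116 RPM to 4.96, 13.04 and 5.27 RPM (-3.66 ± 0.28, adjusted p = 2.26e-06), without overlap. In this organ the neutrophil and granulocyte precursor list was also higher in Ly6C high (32175 to 34427 RPM) than in Ly6C low libraries (1109 to 2509 RPM), and its part in the result was not tested.

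In the liver the 16 members that rose were 5 of the 6 MCM subunits (not Mcm3), the 5 polymerase and primase genes, Rfc3, Lig1, Rrm1, Tk1, Dut and Uhrf1. Mcm7 was at 25.01, 28.4 and 25.9 RPM in Ly6C high and 86.9, 73.03 and 75.3 RPM in Ly6C low macrophages (1.42 ± 0.15, adjusted p = 4.12e-04). Mcm6 was at 19.8, 18.7 and 20.6 RPM and 67.05, 59.5 and 51.8 RPM (1.43 ± 0.16, adjusted p = 6.77e-04), and Prim1 at 3.09, 4.26 and 3.399 RPM and 16.8, 12.5 and 11.7 RPM (1.58 ± 0.22, adjusted p = 0.00187). The subsets were far apart in each of these genes. The polymerase and primase genes changed by 1.15 (Pold1) to 1.58 (Prim1). Rrm1 (1.15 ± 0.15, adjusted p = 0.00168), Tk1 (1.55 ± 0.31, adjusted p = 0.0141) and Uhrf1 (1.29 ± 0.32, adjusted p = 0.0325) were among the others, while Cdc6 (-0.08 ± 0.30, adjusted p = 0.931) and Cdt1 (-0.09 ± 0.18, adjusted p = 0.843) did not pass, and Cdt1 was above 0 on unscaled RPM. Without the filter on low values 8 members were called, and without wild-type Ly6C low replicate 3, 7 were. Of the 6 fits that left out 1 library, Pola1 and Uhrf1 lost their call in 5, Mcm4, Rfc3 and Dut in 4, Lig1 in 3 and Pole, Prim2 and Tk1 in 1, and the one without Ly6C low replicate 3 was among them for each of these 9 genes. Leaving out Ly6C high replicate 1 also ended the calls of Mcm4, Pola1, Lig1, Dut and Uhrf1, replicate 2 those of Rfc3, Dut and Uhrf1, and replicate 3 those of Mcm4, Pola1 and Rfc3. Ly6C low replicate 1 ended those of Mcm4, Pola1, Rfc3, Lig1 and Uhrf1, and replicate 2 those of Pola1, Dut and Uhrf1. Kupffer cell genes summed to 15.7 to 20.8 RPM in Ly6C high and 152 to 201 RPM in Ly6C low libraries, and endothelial genes to 85.5 to 121 and 271 to 466 RPM. The neutrophil and granulocyte precursor list ran the other way, with 248 to 2432 RPM in Ly6C high and 4.47 to 11.6 RPM in Ly6C low libraries. Dendritic cell genes summed to 165 to 181 RPM in Ly6C high and 248 to 311 RPM in Ly6C low libraries, and of the 7 listed Zbtb46 (2.15 ± 0.20, adjusted p = 1.99e-04), Xcr1 (1.60 ± 0.28, adjusted p = 0.00638) and Clec9a (0.72 ± 0.15, adjusted p = 0.0149) were called higher and 2 lower. Myeloid progenitor genes summed to 29.8 to 45.9 and 68.5 to 86.5 RPM, and of 6 tested Cd34 (2.97 ± 0.21, adjusted p = 6.02e-05) and Kit (1.73 ± 0.32, adjusted p = 0.00952) were called higher and 1 lower. The part of these genes in the result was not tested. Top2a rose, from 6.25, 14.4 and 7.78 RPM to 28.4, 21.4 and 23.4 RPM (1.25 ± 0.26, adjusted p = 0.0165), and Mki67 was not called (1.03 ± 0.29, adjusted p = 0.0586).

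The difference between the organs in the wild-type subset contrast was tested in a comparison added after these results were seen. Of 32 members, 28 were called higher in the liver and none lower, where 10.6% of the 12339 genes tested were higher and 7.76% lower, with a median of 1.80 against 0.01. Mcm6 had the lowest adjusted p (2.17 ± 0.18, adjusted p = 3.33e-06), followed by Prim1 (3.04 ± 0.27, adjusted p = 5.97e-06) and Rrm1 (2.43 ± 0.22, adjusted p = 6.57e-06). The largest values were those of Uhrf1 (3.93 ± 0.43, adjusted p = 3.03e-05) and Rrm2 (3.88 ± 0.56, adjusted p = 2.82e-04). Orc6, Gins1, Rfc2 and Rpa2 were not called, with values from 0.45 to 1.01. Leaving out any 1 library gave 25 to 29 calls.

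**Figure D5:**
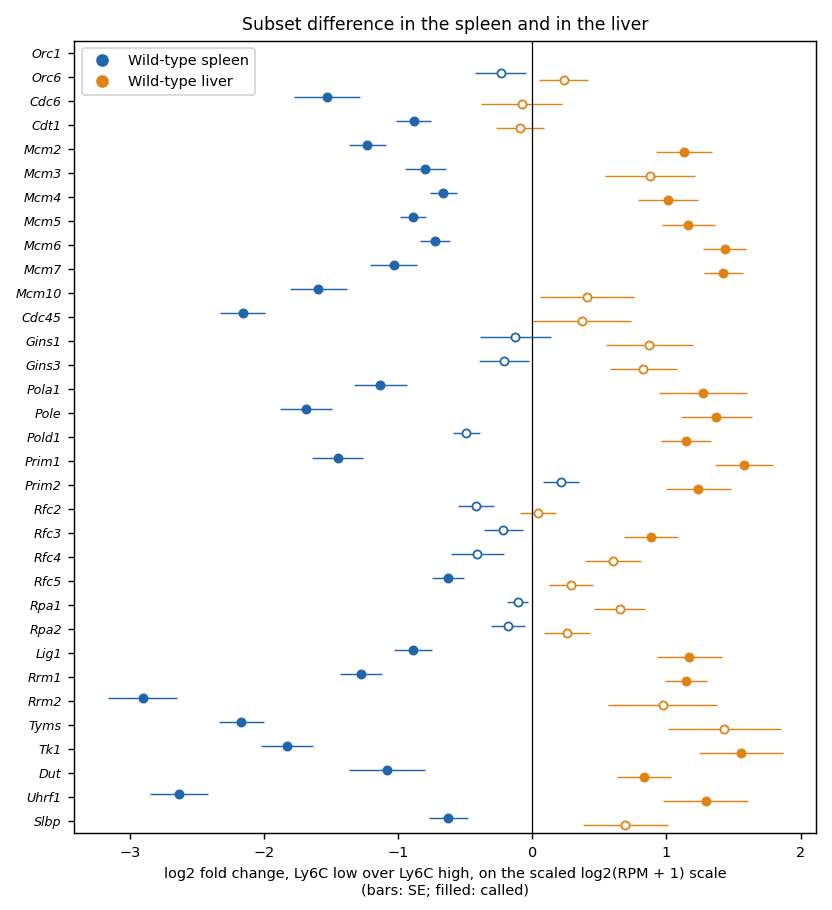
Difference between Ly6C low and Ly6C high macrophages of wild-type mice for each member, as log2 fold change on the scaled log2(RPM + 1) scale, in spleen (blue) and liver (orange). Bars are SE and filled points are called; all 22 filled points of the spleen lie left of 0 and all 16 of the liver lie right of it.

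In Rnaset2-/- mice, 20 of 33 members were lower in splenic Ly6C low than in Ly6C high macrophages and none was higher, where 15.1% of the 10309 genes tested were lower and 13% higher. The median was -1.05 against -0.02. Cdc45 was at 24.4, 32.8 and 44.1 RPM in Ly6C high and 9.46, 5.82, 2.695 and 2.54 RPM in Ly6C low macrophages (-2.61 ± 0.38, adjusted p = 0.0021), without overlap. Gins1 (-1.66 ± 0.30, adjusted p = 0.00489), Tyms (-2.5 ± 0.46, adjusted p = 0.00526) and Rfc5 (-1.46 ± 0.27, adjusted p = 0.00599) followed. For 14 members the subsets did not overlap, as for 21.7% of tested genes. Orc1, one of the 20, passed the filter through its Ly6C high libraries, since a single Ly6C low library reached 1 RPM, so its call is a description; leaving it out, 19 of 32 members were lower. The count of called members depended on single libraries: it was 11, 6 and 5 without Ly6C high replicates 1, 2 and 3, and 30, 13, 10 and 12 without Ly6C low replicates 1, 2, 3 and 4. It was 12 without the filter on low values and 12 with edgeR.

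In the liver of Rnaset2-/- mice, 8 of 32 members were higher in Ly6C low macrophages and none was lower, where 8.75% of the 10895 genes tested were higher and 8.26% lower. The median was 0.61 against -0.02. Tk1 was at 10.2, 11.9 and 9.54 RPM in Ly6C high and 62.6, 91.9 and 42.3 RPM in Ly6C low macrophages (2.62 ± 0.28, adjusted p = 0.00334), again without overlap. The other 7 were Prim2 (1.16 ± 0.21, adjusted p = 0.0139), Mcm7 (1.00 ± 0.19, adjusted p = 0.0154), Gins1 (1.06 ± 0.23, adjusted p = 0.0257), Pola1 (1.06 ± 0.24, adjusted p = 0.0276), Mcm4, Rpa2 and Mcm10. In this comparison same-numbered libraries deviated together (r = 0.506, 0.219 and 0.421), and 12 members were called with the replicate number as a block. The 8 calls and the values above come from the fit without that block, so they leave this pairing out. The count was 2 and 1 without Ly6C high replicates 2 and 3, and 4, 2 and 5 without Ly6C low replicates 1, 2 and 3. It was 5 on unscaled RPM, 5 without the filter and 13 in 1 fit of all 29 libraries. Other cell types differed between the same libraries. The neutrophil and granulocyte precursor list summed to 282 to 1840.2 RPM in Ly6C high and 1.99 to 16.9 RPM in Ly6C low libraries, and NK cell genes to 286 to 709 and 30.3 to 91.1 RPM. Kupffer cell genes summed to 422 to 494 RPM in Ly6C high and 6556 to 11399 RPM in Ly6C low libraries, and the part of these genes in the result was not tested.

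Against wild-type hepatic Ly6C low macrophages, 7 of 32 members were higher in Kupffer cells and 3 were lower, where 26% of the 12515 genes tested were higher and 24% lower. The median was 0.13 against 0.02. The shares of members called higher and called lower were no larger than those of all tested genes. Tk1 was at 10.9, 13.4 and 12.3 RPM in Ly6C low macrophages and 71.02, 105, 48.03 and 57.4 RPM in Kupffer cells (1.81 ± 0.26, adjusted p = 1.87e-04). Mcm2 was at 20.3, 24.8 and 22.3 RPM and 74.1, 81.3, 73.5 and 102 RPM (1.25 ± 0.19, adjusted p = 2.75e-04). Neither overlapped in RPM, and every Kupffer library was the higher for 47.1% of tested genes. Lig1 (1.05 ± 0.20, adjusted p = 0.00134), Mcm3 (1.22 ± 0.26, adjusted p = 0.00262), Uhrf1 (0.98 ± 0.23, adjusted p = 0.00491), Pold1 (0.74 ± 0.18, adjusted p = 0.00574) and Mcm6 (0.62 ± 0.17, adjusted p = 0.0102) were also higher. Prim2 (-1.26 ± 0.30, adjusted p = 0.0051), Slbp (-0.76 ± 0.24, adjusted p = 0.019) and Rfc2 (-0.63 ± 0.21, adjusted p = 0.0246) were lower, although their RPM overlapped between the groups. The scaling factors of the groups differed by 0.59 on the log2 scale, and on unscaled RPM 15 members were higher and none lower. Leaving out 1 library at a time gave 7 to 11 calls in 7 fits. Rfc2 lost its call in 4 (without Kupffer replicate 1 or 2, or Ly6C low replicate 2 or 3), Mcm6 in 2 (without Kupffer replicate 2 or Ly6C low replicate 3) and Slbp in 2 (without Ly6C low replicate 1 or 3). Kupffer replicates differed among themselves, as in Gins1, at 19.8, 16.5, 2.53 and 3.27 RPM, where replicates 1 and 2 were several times replicates 3 and 4.

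Among genes of the helicase and its loading, some were higher in RPM in Kupffer cells than in every wild-type Ly6C low library. This pattern was shown by 47.1% of the 12515 genes tested. Mcm5 was at 36.04, 53.7, 35.2 and 48.5 RPM and Mcm6 at 110.3, 159.98, 149.9 and 137 RPM, each above every wild-type Ly6C low library. Cdc6 was at 3.77, 5.16, 5.15 and 4.53 RPM and Cdt1 at 31.6, 33.5, 31.6 and 31.03 RPM, also above that range, although the scaled differences of Mcm5 (0.31 ± 0.22, adjusted p = 0.257), Cdc6 (0.38 ± 0.27, adjusted p = 0.251) and Cdt1 (0.33 ± 0.18, adjusted p = 0.138) were not called. Cdc45, at 3.52, 4.66, 8.73 and 1.59 RPM, varied widely and overlapped with the Ly6C low libraries (0.02 ± 0.44, adjusted p = 0.97). Orc1 had 19, 21, 5 and 7 reads, Gins2 7, 7, 6 and 6 reads and Fen1 0, 0, 1 and 0 reads.

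Among synthesis and supply genes in Kupffer cells, Pola1 was at 10.8, 9.15, 8.99 and 8.39 RPM (-0.01 ± 0.23, adjusted p = 0.974), Prim1 at 20.9, 20.5, 17.8 and 15.3 RPM (-0.13 ± 0.21, adjusted p = 0.627) and Rpa1 at 244, 274, 362 and 308 RPM (0.29 ± 0.18, adjusted p = 0.182). Rrm1 was at 60.2, 67.8, 75.7 and 66.6 RPM (0.23 ± 0.16, adjusted p = 0.232), Rrm2 at 20.9, 25.96, 23.1 and 22.2 RPM (-0.08 ± 0.20, adjusted p = 0.754) and Tyms at 13.6, 20.96, 4.45 and 7.88 RPM (0.47 ± 0.46, adjusted p = 0.402). None of these 6 was called, and Pola1, Rpa1, Rrm1 and Rrm2 were above every Ly6C low library in RPM, as were 47.1% of tested genes. Lig1 was at 24.7, 27.3, 24.5 and 20.97 RPM and Uhrf1 at 65.3, 59.5, 39.2 and 40.8 RPM, the latter higher in replicates 1 and 2 than in 3 and 4. Hepatocyte genes summed to 1211 to 4177 RPM and endothelial genes to 2839 to 7133 RPM in the Kupffer libraries, against 46.9 to 102.8 and 271 to 466 RPM in wild-type Ly6C low libraries, and their part in the result was not tested.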

How the data were processed

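RNA of sorted macrophages was amplified with the Ion AmpliSeq mouse transcriptome panel, sequenced on the Ion Proton and mapped to mm10 by the authors in Torrent Suite (AmpliSeqRNA plug-in). The deposited values are RPM, that is, normalised reads and not raw counts. Whole reads could be recovered for 100.0% of values (within 0.1 reads).

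Values were divided by relative log expression factors, log2(value + 1) was taken, and genes with at least 1 RPM in 3 compared libraries were fitted with limma 3.58.1 (R 4.3.3; empirical Bayes with a trend, two-sided, Benjamini-Hochberg adjustment over all tested genes). Calls required an adjusted p below 0.05 and more than 1.5-fold, the thresholds of the study. The study normalised with DESeq2, which was used here, with edgeR 4.0.16, only as an alternative (DESeq2 1.42.0) on recovered reads. Scripts were tested on simulated data. The rule for the members uses no measured value, but members and gene lists were chosen with earlier results of these data known. Named members were the 5 with the lowest adjusted p and the 5 most changed of those called in each genotype comparison, or the 5 largest differences where fewer than 5 were called, together with 20 fixed genes; at most 5 called genes were named per further list. Rows for Rnaset2a, Rnaset2b and Pcna were not analysed here. Intervals of depth cover counting error only. Same-numbered libraries deviated together only in the hepatic Rnaset2-/- subset comparison, where every correlation was above 0.1. There the numbers were taken as pairs only in an alternative fit. The fold changes, SEs and adjusted p-values given for that comparison come from the fit without pairs.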

Additional observations from a re-analysis of the deposited data

Results flagged for a closer look

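A library far from the others was looked for in 66 checks, 1 for each member in each group of 4 libraries, and 5 checks found such a library. Chance gives about 1 in 20 for a single check. The members shared their libraries, so the checks were not independent and their count was not tested against chance. In splenic Rnaset2-/- Ly6C low macrophages, replicate 1 stood above the other 3 libraries for Mcm3 (102.99 RPM), Mcm10 (11.665 RPM) and Gins1 (5.761 RPM). This library also had the highest sum of neutrophil and erythroid genes of its group. In Kupffer cells, replicate 2 stood apart for Mcm4 (52.244 RPM) and replicate 4 for Slbp (40.09 RPM).

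The effect of genotype differed between the splenic subsets for Gins1 (-1.536 on the log2 scale, Ly6C low minus Ly6C high) and Prim2 (-0.8371), 2 of 33 members where 6.38% of tested genes were lower, and leaving out single libraries lost these calls in 9 and 10 of 13 fits. It differed between the hepatic subsets for Dut (-1.429) and Prim1 (-1.183), where 5.25% of tested genes were lower, and the call of Prim1 was lost in 8 of 12 fits. Between the organs (liver minus spleen), it differed in Ly6C high macrophages for Orc6 (-2.258), Mcm3 (1.333), Pold1 (1.047) and Cdc45 (-1.025), where 17.6% of tested genes were higher and 16% lower, and the calls of Cdc45 and Pold1 were lost in 6 and 5 of 12 fits. It differed in Ly6C low macrophages for Orc6 (-1.359) and Rfc5 (0.9357), where 12.1% of tested genes were higher and 14.7% lower, and these calls were lost in 10 and 12 of 13 fits. In the liver, genotype and sex of the mice cannot be told apart, and this holds for each value that uses hepatic Rnaset2-/- libraries. In a comparison added after the opposite directions in both organs were seen, the wild-type subset contrast differed between the organs for 28 of 32 members, all higher in liver, where 10.6% of 12339 tested genes were higher and 7.76% lower, with the lowest adjusted p for Mcm6 (2.168), Prim1 (3.039), Rrm1 (2.431), Mcm7 (2.464) and Pole (3.073).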

How the results depend on the processing

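Counts of called members stayed within 1.5 times of those reported except as follows. With 1 fit of all 29 libraries, 11 members were called in splenic Ly6C high macrophages by genotype and 13 between the hepatic Rnaset2-/- subsets. Without the filter on low values the count was 12 between the splenic Rnaset2-/- subsets, 8 between the hepatic wild-type subsets and 5 between the hepatic Rnaset2-/- subsets. On unscaled RPM the last was 5, and edgeR gave 12 between the splenic Rnaset2-/- subsets. DESeq2 called 2 members by genotype in splenic Ly6C low macrophages.

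For differences of effects between the splenic subsets, the count was 1 with 0.1 added in place of 1 and with edgeR, and 0 without the filter, on unscaled RPM and with all 29 libraries. Between the hepatic subsets it was 1 without the filter and 4 unscaled. Between the organs it was 7 unscaled in Ly6C high macrophages. In Ly6C low macrophages it was 0 without the filter, 0 unscaled and 1 with edgeR. No member that was called changed direction under any alternative.

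Leaving out single libraries gave 19 to 25, 0 to 0, 9 to 17 and 5 to 16 calls by genotype in splenic Ly6C high, splenic Ly6C low, hepatic Ly6C high and hepatic Ly6C low macrophages. Between subsets it gave 21 to 22 (splenic wild-type), 5 to 30 (splenic Rnaset2-/-), 7 to 15 (hepatic wild-type) and 1 to 9 (hepatic Rnaset2-/-), and 7 to 11 for Kupffer cells. Differences of effects gave 0 to 4 and 1 to 3 between the splenic and hepatic subsets, 2 to 6 and 0 to 4 between the organs in Ly6C high and Ly6C low macrophages, and 25 to 29 in the wild-type contrast. With the replicate number as a block, 2 members were called between the splenic Rnaset2-/- subsets and 0 differed in effect between the splenic subsets. Elsewhere the blocked count was within 1.5 times, and outside the hepatic Rnaset2-/- subsets the numbers are not known to pair the libraries. In the Rnaset2-/- spleen, replicate 2 held 301.2 RPM of Y-linked transcripts in Ly6C low and 0 RPM in Ly6C high macrophages. That number therefore did not join libraries of the same mouse.

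A shorter E2F-like core of 6 letters (the last 6 letters of each form) was found in a promoter entry of 25 of 29 members (86.2%) and of 47.4% of all genes with an entry, so its share differs less from that of all genes. Levels of Gins2 and Fen1 were near the floor of 3 reads in many libraries, where differences were not detectable at this depth.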
